A study of Mus musculus with 6 samples.

Results

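The 9 genes of cholesterol sensing, export and storage described here were measured in BV2, a mouse microglial line that has been immortalised. They are Nr1h3 and Nr1h2, which encode the liver X receptors LXRα and LXRβ, their partner Rxra, the cholesterol exporters Abca1 and Abcg1, the ubiquitin ligase gene Mylip, and the genes of cholesteryl ester turnover Soat1, Nceh1 and Plin2. They were picked by gene symbol from the annotated table, and all 9 were found among the 25032 genes with at least 1 read. All 9 passed the filter on low counts, as did 13199 genes in all. Poly(A)-selected RNA was sequenced from 3 libraries of BV2 cells with forced expression of TDP43-NLS (TDP-43 whose nuclear localisation signal is mutated, per the design text), and from 3 libraries of cells given GFP in the same way. The labels give neither the promoter, the species of the construct, the time after its introduction nor whether the cells were a clone, and they do not say whether the 3 libraries of a group came from separate cultures. The p-values below therefore measure the spread between these libraries, which may be technical.

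Libraries held 15062131 to 18005592 counted reads. GFP replicate 2 stood apart from the other GFP libraries, its counts differing from theirs with a chi-square of 6.67 and 6.68 times its degrees of freedom, where the remaining pairs within a group gave 1.18 to 2.56 times. The construct itself has no row in the count table, and mouse Tardbp was slightly lower in the libraries labelled TDP43-NLS, at 377 ± 9.62 CPM against 451 ± 24 CPM in the libraries labelled GFP (SD, n = 3 each), so every direction rests on the labels, and the names TDP43-NLS and GFP libraries below mean libraries so labelled. All 14 microglial and macrophage markers had reads, and their summed level was 2589 to 2655 CPM (reads scaled to library size) in the TDP43-NLS libraries and 2841 to 2900 CPM in the GFP libraries. Of those markers, the microglia-restricted P2ry12 was near the limit of detection, with 0.261 and 1.27 CPM on average in the TDP43-NLS and GFP libraries. Markers of neurons had no read. Summed endothelial markers stood at 1.55 to 1.97 CPM in the TDP43-NLS libraries and 0.342 to 0.71 CPM in the GFP libraries. Pecam1, which myeloid cells also use, averaged 1.49 CPM in the TDP43-NLS libraries and 0.162 CPM in the GFP libraries. Cdh5 averaged 0.261 and 0.36 CPM. The part of either marker list in the results was not tested.

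LXRα and LXRβ are nuclear receptors for oxysterols and for desmosterol, a precursor of cholesterol. Paired with a retinoid X receptor, they bind direct repeats of a hexamer spaced by 4 bases (DR4 elements) and, when loaded with ligand, raise transcription of genes that move cholesterol out of the cell. In macrophages and microglia, which take up cholesterol from debris, this includes ABCA1, which loads cholesterol onto lipid-poor apolipoproteins, ABCG1, which passes it to HDL particles, and MYLIP (also called IDOL), which marks lipoprotein receptors for degradation. Cholesterol that is not exported is esterified by SOAT1 and kept in lipid droplets coated by perilipin 2, the product of Plin2, and NCEH1 is a hydrolase that frees it again.

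The exporters, Mylip, Rxra and Soat1 were lower in TDP43-NLS cells, Plin2 and Nr1h2 were higher, and Nr1h3 and Nceh1 were not called. With edgeR's quasi-likelihood test and an adjusted p under 0.05 over all tested genes, 5 of the 9 genes fell and 2 rose, where 28.2% of all tested genes fell and 29.3% rose, 57.5% in all. In 7 of the 9 genes the groups did not overlap in CPM, and the same held for 63.2% of all tested genes. With most tested genes called, the count alone says little about these 9, and their directions and sizes follow gene by gene. Their median log2 fold change (TDP43-NLS over GFP throughout) was -0.20, against 0.003 over all tested genes, and their median absolute log2 fold change was 0.39, against 0.26.

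**Figure D1:**
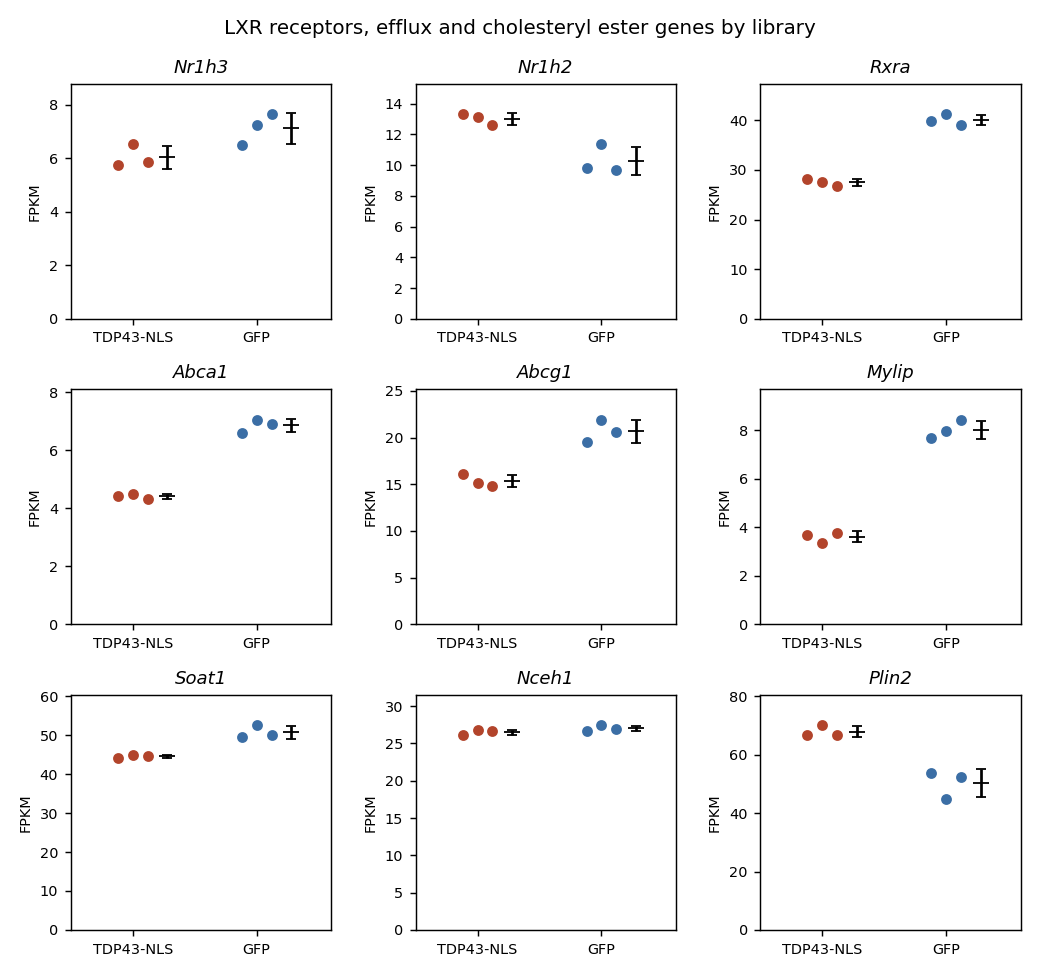
Level of each of the 9 genes in FPKM (fragments scaled to gene length and library size, vertical axes from 0), with 1 point per library and the mean ± SD (n = 3) beside each group. Mylip had 3.35 to 3.78 FPKM in the TDP43-NLS libraries, below the 7.67 to 8.42 FPKM of the GFP libraries, and Nceh1 lay at 26.1 to 27.4 FPKM in all 6.

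The receptors moved in different directions. Nr1h2 (LXRβ; ENSMUSG00000060601, GRCm39 chromosome 7, 44199040 to 44203375, minus strand) was counted at 672, 794 and 743 reads, or 13.3, 13.1 and 12.6 FPKM, in the TDP43-NLS libraries, against 506, 634 and 564 reads, or 9.82, 11.3 and 9.68 FPKM, in the GFP libraries. The highest GFP library, replicate 2, stayed below every TDP43-NLS library. The log2 fold change was 0.38 with a standard error of 0.07 (edgeR quasi-likelihood test, adjusted p = 0.000276), and 0.45 without GFP replicate 2.

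Nr1h3 (LXRα; ENSMUSG00000002108, chromosome 2, 91014406 to 91033179, minus strand) is the receptor isoform enriched in macrophages and liver. It was counted at 218, 296 and 259 reads, or 5.75, 6.54 and 5.85 FPKM, in the TDP43-NLS libraries and at 251, 303 and 334 reads, or 6.5, 7.23 and 7.65 FPKM, in the GFP libraries. The groups overlapped, since TDP43-NLS replicate 2 lay slightly above GFP replicate 1. The log2 fold change was -0.20 with a 95% interval of -0.38 to -0.02, and it missed the threshold (edgeR quasi-likelihood test, adjusted p = 0.0598). It passed under 5 of 15 alternatives, with an adjusted p of 0.0261 without GFP replicate 1, 0.0466 without TDP43-NLS replicate 2, 0.0426 with upper-quartile scaling, and 0.0433 with limma on log2(FPKM + 1) and on log2(FPKM + 0.1) after the filter on low FPKM. A lncRNA gene on the same strand, Gm13783, overlaps Nr1h3 but had at most 6 reads in any library.

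Rxra (ENSMUSG00000015846, chromosome 2, 27566452 to 27652969, plus strand) encodes a retinoid X receptor, with which both LXRs can pair to bind DNA. Rxra had 28.2, 27.7 and 26.8 FPKM in the TDP43-NLS libraries, against 39.9, 41.2 and 39.1 FPKM in the GFP libraries. All TDP43-NLS libraries lay well below all GFP libraries, and the SDs were 0.70 and 1.06 FPKM. The log2 fold change was -0.51 with a standard error of 0.04 (edgeR quasi-likelihood test, adjusted p = 2.47e-07). Of the other receptors and coregulators listed as LXR partners, 16 of 18 were tested, 5 rose, 4 fell and 7 were not called. Among all tested genes 29.3% rose and 28.2% fell, and the median log2 fold change of the list was 0.02. Ppard and Rara, 2 further partners of retinoid X receptors, rose by 0.69 and 0.51 on the log2 scale. Pparg, another such partner, fell by 1.77 on the log2 scale. It had only 10 reads in all TDP43-NLS libraries and 35 in all GFP libraries. Pias1, a SUMO ligase that acts on nuclear receptors, fell by 0.39. Pias1 lies on chromosome 9, whose 711 other tested genes had a median log2 fold change of -0.31. The 80 tested genes within 5 Mb of Pias1 had a median of -0.12. Rxrb, the second retinoid X receptor, had 26.2 and 24.1 FPKM on average in the TDP43-NLS and GFP libraries (log2 fold change 0.16, edgeR quasi-likelihood test, adjusted p = 0.00816), next to 27.5 and 40.1 FPKM for Rxra. Rxrg and Ppara had no read in the 6 libraries. Rxrb, Rxrg, Ppara and Pparg were chosen after their values were seen.

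Both cholesterol exporters fell. Abca1 (ENSMUSG00000015243, chromosome 4, 53030787 to 53159895, minus strand) was counted at 690, 839 and 789 reads, or 4.42, 4.5 and 4.32 FPKM, in the TDP43-NLS libraries, against 1050, 1217 and 1244 reads, or 6.6, 7.05 and 6.91 FPKM, in the GFP libraries. The groups were separated by far more than their spread. The log2 fold change was -0.60 with a standard error of 0.05 (edgeR quasi-likelihood test, adjusted p = 3.03e-07), and 8.69% of all tested genes had a lower one. Abcg1 (ENSMUSG00000024030, chromosome 17, 31276649 to 31336962, plus strand) had 16.1, 15.2 and 14.8 FPKM in the TDP43-NLS libraries and 19.5, 21.9 and 20.6 FPKM in the GFP libraries, again without overlap. Its log2 fold change was -0.39 with a standard error of 0.05 (edgeR quasi-likelihood test, adjusted p = 2.21e-05), and -0.35 without GFP replicate 2.

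The 250 bases before the annotated start of Abca1 hold a DR4 element, and the sequence is shown because Abca1 is known as an LXR target through a DR4 element close to its start. The element was searched as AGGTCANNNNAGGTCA on both strands, with up to 3 of its 12 fixed letters changed, before the gene starts that RefSeq gives on the build GRCm38.p6, an earlier build than that of the deposited tables. Of the 9 genes 8 had an entry, with 10 starts, and Abcg1 had none. Elements were found for Abca1 and before 1 of the 2 starts of Rxra, whereas 18.5% of all 32851 starts in the table held one, so a match at this looseness is common. The letters of the Abca1 element on the strand opposite to the gene, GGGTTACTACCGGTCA, are close to those before 1 of the 3 starts of Srebf1, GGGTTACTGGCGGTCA. Searched as GGGTTACTNNCGGTCA, the form that these share, it stood before the starts of 3 genes in the whole table, Abca1, Srebf1 and Fasn, the first and second by construction. The upstream sequences of the 3 genes follow, 5′ to 3′ on the gene's strand (minus for all), with the element in capitals; they are Abca1 at chr4:53159896-53160145, Srebf1 at chr11:60210472-60210721 and Fasn at chr11:120824548-120824797.
Abca1: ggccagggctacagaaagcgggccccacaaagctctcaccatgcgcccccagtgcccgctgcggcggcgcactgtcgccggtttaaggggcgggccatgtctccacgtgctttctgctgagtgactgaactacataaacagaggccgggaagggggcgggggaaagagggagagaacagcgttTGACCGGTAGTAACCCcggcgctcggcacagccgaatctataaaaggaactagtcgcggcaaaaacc
Srebf1: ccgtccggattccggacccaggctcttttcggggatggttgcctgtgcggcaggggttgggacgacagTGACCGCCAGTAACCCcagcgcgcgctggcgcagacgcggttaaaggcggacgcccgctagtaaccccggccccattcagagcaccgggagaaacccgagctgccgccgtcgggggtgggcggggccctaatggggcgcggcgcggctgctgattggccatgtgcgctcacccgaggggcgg
Fasn: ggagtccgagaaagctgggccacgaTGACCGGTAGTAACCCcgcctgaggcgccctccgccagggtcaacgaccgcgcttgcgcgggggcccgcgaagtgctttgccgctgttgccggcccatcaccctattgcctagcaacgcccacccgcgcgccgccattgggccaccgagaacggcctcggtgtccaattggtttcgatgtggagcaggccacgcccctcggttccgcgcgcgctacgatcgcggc
The element starts 67 bases before the start of Abca1, 182 bases before that of Srebf1 and 225 bases before that of Fasn. A match says only that these letters are present, and no binding was measured.

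All 3 genes with that element fell. Srebf1, whose product SREBP1 drives fatty acid synthesis, had 33.6, 33.6 and 33.8 FPKM in the TDP43-NLS libraries, against 43, 46.2 and 43.5 FPKM in the GFP libraries (log2 fold change -0.36, standard error 0.04; edgeR quasi-likelihood test, adjusted p = 6.84e-06). Fasn, fatty acid synthase, had 70.3, 67.7 and 64.1 FPKM in the TDP43-NLS libraries and 84.3, 94.8 and 85.7 FPKM in the GFP libraries (log2 fold change -0.35, standard error 0.05; edgeR quasi-likelihood test, adjusted p = 5.14e-05). Of all tested genes 28.2% fell, and Fasn was chosen after its values were seen. The searched form was built from Abca1 and Srebf1, so these 3 falls are no test of the element. The sizes of the falls in Srebf1 and Fasn were close to that of Abcg1 and smaller than that of Abca1.

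Of 19 other LXR target genes listed, 10 were tested. Where 28.2% of all tested genes fell and 29.3% rose, 6 of these 10 fell, 1 rose and 3 were not called. Their median log2 fold change was -0.36. Among those that fell, besides Srebf1 and Fasn, was Apoe, the apolipoprotein that accepts cholesterol from ABCA1 in the brain, with 374, 373 and 369 FPKM in the TDP43-NLS libraries against 572, 562 and 573 FPKM in the GFP libraries (log2 fold change -0.58; edgeR quasi-likelihood test, adjusted p = 2.10e-08). Scd2, a fatty acid desaturase, fell by 0.54 on the log2 scale. Mertk, which lets phagocytes engulf dying cells, had 0.72, 0.807 and 0.864 FPKM in the TDP43-NLS libraries, against 6.34, 6.82 and 6.23 FPKM in the GFP libraries, and fell by 2.97 on the log2 scale. Lpl, lipoprotein lipase, fell by 0.53, and Lpcat3, which remodels phospholipids, was the gene of this list that rose, by 0.13 (both chosen after their values were seen). Of the 9 untested genes of this list, Smpdl3a had no read and the others had too few for the filter. Gramd1b, an LXR target counted below with the sterol transport genes, rose by 0.36 on the log2 scale.

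Mylip had the largest change of the 9 genes. The gene (ENSMUSG00000038175, chromosome 13, 45543218 to 45565498, plus strand) was counted at 180, 195 and 215 reads in TDP43-NLS cells and at 381, 428 and 473 reads in GFP cells. In FPKM this was 3.7, 3.35 and 3.78 in the TDP43-NLS libraries and 7.67, 7.94 and 8.42 in the GFP libraries, a clear separation in which the lowest GFP library was above the highest TDP43-NLS library by more than the spread of either group. The log2 fold change was -1.12 with a standard error of 0.08 (edgeR quasi-likelihood test, adjusted p = 5.61e-08), a 2.17-fold lower level, and 3.17% of all tested genes had a lower one. It was the only 1 of the 9 genes to pass a test against a log2 fold change of 0.5 (adjusted p = 4.38e-06 with edgeR's glmTreat, where its adjusted p over the 15 alternatives ran from 1.39e-36 to 0.000146), which 14.9% of all tested genes passed.

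Of the lipoprotein receptors that MYLIP marks for degradation, Lrp8 was not called and Vldlr had no read. Lrp8 had 8.43 ± 0.135 FPKM in the TDP43-NLS libraries and 8.04 ± 0.472 FPKM in the GFP libraries (SD, n = 3 each; log2 fold change 0.10, edgeR quasi-likelihood test, adjusted p = 0.0824) and passed without GFP replicate 2 (log2 fold change 0.15, adjusted p = 0.00234). Of the 12 genes listed for lipoprotein receptors and the SREBP2 pathway, which raises cholesterol uptake and synthesis, 10 were tested. Of these 7 fell, 1 rose and 2 were not called, where 28.2% of all tested genes fell and 29.3% rose. The list had a median log2 fold change of -0.29. Insig1, which retains SREBP in the endoplasmic reticulum, fell by 0.66 on the log2 scale. Scap, the escort protein of SREBP, fell by 0.57, and the 131 tested genes within 5 Mb of it on chromosome 9 had a median log2 fold change of -0.28.

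Of the genes of cholesteryl ester turnover, the droplet coat rose, the esterifying enzyme fell a little and the hydrolase was not called. Plin2 (ENSMUSG00000028494, chromosome 4, 86566623 to 86588297, minus strand) was counted at 3536, 4434 and 4139 reads, or 66.8, 70.1 and 66.9 FPKM, in the TDP43-NLS libraries, against 2898, 2625 and 3205 reads, or 53.7, 44.8 and 52.5 FPKM, in the GFP libraries. GFP replicate 2 was the lowest library, and the groups did not overlap. The log2 fold change was 0.47 with a standard error of 0.06 (edgeR quasi-likelihood test, adjusted p = 1.89e-05), and 0.39 without GFP replicate 2.

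Soat1 (ENSMUSG00000026600, chromosome 1, 156252095 to 156301901, minus strand) had 44.1, 45 and 44.6 FPKM in the TDP43-NLS libraries, against 49.6, 52.6 and 50 FPKM in the GFP libraries. The groups were close but did not overlap, and the log2 fold change was -0.15 with a standard error of 0.04 (edgeR quasi-likelihood test, adjusted p = 0.00499), smaller in size than that of 68.7% of all tested genes. Nceh1 (ENSMUSG00000027698, chromosome 3, 27237114 to 27338757, plus strand) had 26.1, 26.8 and 26.6 FPKM in the TDP43-NLS libraries and 26.7, 27.4 and 26.9 FPKM in the GFP libraries. Its log2 fold change was 0.01 with a 95% interval of -0.08 to 0.09 (edgeR quasi-likelihood test, adjusted p = 0.858). FPKM carries no TMM scaling, whose factors were 0.986 to 0.990 in the TDP43-NLS libraries and 1.01 to 1.02 in the GFP libraries, so FPKM sits slightly lower in the TDP43-NLS libraries than scaled counts do, and the sign for Nceh1 turned with the scaling.

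The wider list of lipid droplet and neutral lipid enzymes moved both ways and held larger changes than Plin2 or Soat1. Of 21 genes 14 were tested, with a median log2 fold change of -0.03. Of these 6 rose, 4 fell and 4 were not called, where 29.3% of all tested genes rose and 28.2% fell. Soat2, the second cholesterol esterifying enzyme and best known from liver and intestine, had 14.5, 15 and 15.3 FPKM in the TDP43-NLS libraries, against 5.15, 5.69 and 4.84 FPKM in the GFP libraries, a rise of 1.55 on the log2 scale (standard error 0.07, edgeR quasi-likelihood test, adjusted p = 1.34e-09). Soat1 still exceeded it per length in every library. Dgat2, which makes triglycerides, had 18.5, 19.5 and 19.3 FPKM in the TDP43-NLS libraries and 5.72, 6.07 and 5.68 FPKM in the GFP libraries and rose by 1.75 on the log2 scale. Plin3, another droplet coat, had 50 ± 0.581 FPKM in the TDP43-NLS libraries and 26.9 ± 0.606 FPKM in the GFP libraries (SD, n = 3 each) and rose by 0.93, and the 60 tested genes within 5 Mb of it on chromosome 17 had a median log2 fold change of 0.28. Lipa, the lysosomal hydrolase of cholesteryl esters, fell by 0.73, with 16.1 ± 0.239 FPKM in the TDP43-NLS libraries and 27.4 ± 0.283 FPKM in the GFP libraries (SD, n = 3 each), and Hilpda, an inhibitor of lipolysis, rose by 1.23 (both chosen after their values were seen).

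**Figure D2:**
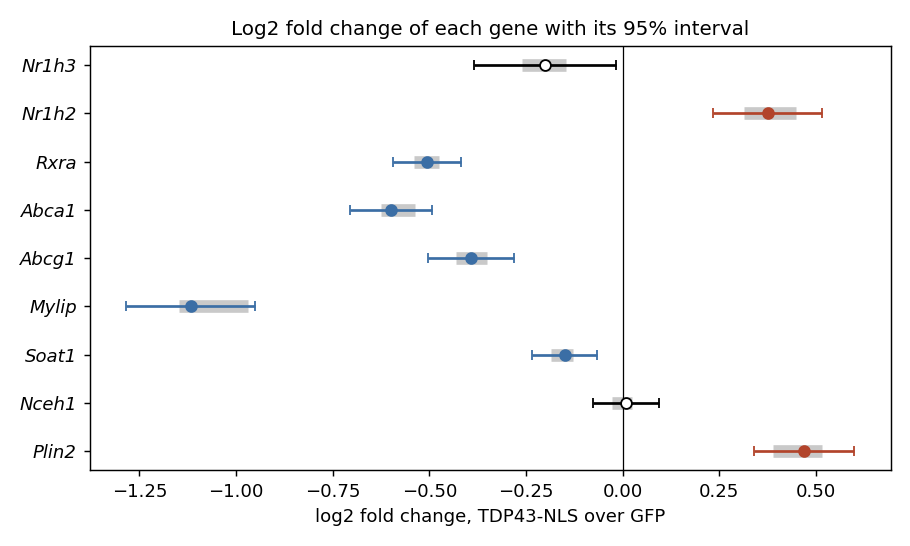
Log2 fold change of each gene, TDP43-NLS over GFP, with its 95% interval from edgeR. Filled points were called (red higher, blue lower), open points were not, and grey bars span the values under 15 alternative settings. Mylip lies at -1.12, Nr1h2 and Plin2 lie above 0, and the interval of Nceh1 runs from -0.08 to 0.09.

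Ratios between genes of a library do not depend on the scaling between libraries. The ratio of Nr1h3 to Nr1h2 in FPKM was 0.433, 0.497 and 0.465 in the TDP43-NLS libraries, against 0.661, 0.637 and 0.79 in the GFP libraries. LXRβ transcripts were thus the more abundant isoform per length in all 6 libraries, and more so in the TDP43-NLS libraries, without overlap. The ratio of Abca1 to Abcg1 was 0.275, 0.296 and 0.291 in the TDP43-NLS libraries and 0.338, 0.322 and 0.336 in the GFP libraries. The ratio of Soat1 to Nceh1 was 1.69, 1.68 and 1.68 in the TDP43-NLS libraries and 1.86, 1.92 and 1.86 in the GFP libraries. The groups were separate for each of the 3 ratios, and the exact two-sided permutation test gave p = 0.1 for each (0.1 when adjusted over the 3), the smallest value that 3 libraries against 3 allow, so none could pass 0.05.

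**Figure D3:**
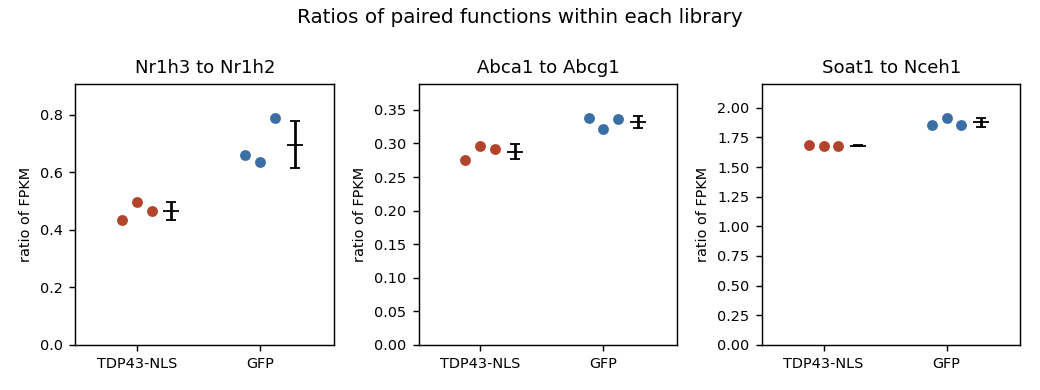
Ratio of FPKM between paired genes within each library, with 1 point per library, the mean ± SD (n = 3) beside each group and axes from 0. The ratio of Nr1h3 to Nr1h2 averaged 0.465 in the TDP43-NLS libraries and 0.696 in the GFP libraries.

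By level per length, Plin2 and Soat1 led in both groups. In the TDP43-NLS libraries the order ran, by mean FPKM, Plin2 (68), Soat1 (44.6), Rxra (27.5), Nceh1 (26.5), Abcg1 (15.3), Nr1h2 (13), Nr1h3 (6.05), Abca1 (4.41) and Mylip (3.61). In the GFP libraries it ran Soat1 (50.7), Plin2 (50.4), Rxra (40.1), Nceh1 (27), Abcg1 (20.6), Nr1h2 (10.3), Mylip (8.01), Nr1h3 (7.12) and Abca1 (6.85). In the TDP43-NLS libraries Rxra and Nceh1, with SDs of 0.70 and 0.341 FPKM, were the closest neighbours at the upper end. In the GFP libraries Soat1 and Plin2 did not differ beyond their spread, nor did Nr1h3 and Abca1.

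Of 8 listed genes that make or remove LXR ligands, 2 had enough reads to be tested. A rise was called for 1 of these, and for 29.3% of all tested genes. Cyp27a1, the mitochondrial sterol 27-hydroxylase, had 25.4, 23.3 and 24.7 FPKM in the TDP43-NLS libraries, against 18.1, 19.8 and 18 FPKM in the GFP libraries, and rose by 0.43 on the log2 scale (standard error 0.06, edgeR quasi-likelihood test, adjusted p = 3.03e-05). Ch25h, which makes 25-hydroxycholesterol and is inducible in macrophages, had 1 read in all TDP43-NLS libraries and 1 in all GFP libraries. Cyp7b1 and Hsd3b7, which degrade oxysterols, had no read.

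Of 8 other sterol exporters and HDL factors listed, 6 were tested, and the median log2 fold change was 0.21. Of these 2 rose, 1 fell and 3 were not called, where 29.3% of all tested genes rose and 28.2% fell. The number called was 1 without GFP replicate 1 or without TDP43-NLS replicate 1. Abca7, a relative of ABCA1 with a part in phagocytosis, had 7.82, 7.38 and 6.74 FPKM in the TDP43-NLS libraries, against 4.52, 5.01 and 4.75 FPKM in the GFP libraries, and rose by 0.65 on the log2 scale (standard error 0.07, edgeR quasi-likelihood test, adjusted p = 1.99e-06). Abca7 was thus above Abca1 per length in every TDP43-NLS library and below it in every GFP library. Abca2 rose by 0.19 and Abcg4, with 16 to 42 reads a library, fell by 0.68 (edgeR quasi-likelihood test, adjusted p = 0.0198 and 0.0322). Each lost its call under 7 alternatives, of the 15 for Abca2 and of the 13 that kept Abcg4. Abcg4 lies on chromosome 9, where the 65 tested genes within 5 Mb of it had a median log2 fold change of -0.40. Scarb1, the HDL receptor, had 23.1 FPKM on average in the TDP43-NLS libraries and 22.8 FPKM in the GFP libraries and was not called (adjusted p = 0.381 in edgeR's quasi-likelihood test; chosen after its values were seen).

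Of 13 listed genes that carry sterols out of the lysosome and between membranes, 12 were tested, with a median log2 fold change of 0.15. Of these 6 rose, 2 fell and 4 were not called, where 29.3% of all tested genes rose and 28.2% fell. Npc2, which lifts cholesterol from lysosomal lipids, had 160, 161 and 165 FPKM in the TDP43-NLS libraries, against 116, 105 and 115 FPKM in the GFP libraries, a rise of 0.57 on the log2 scale (standard error 0.05, edgeR quasi-likelihood test, adjusted p = 2.53e-07). It lies on chromosome 12, whose 477 other tested genes had a median log2 fold change of 0.17. Npc1, its membrane partner, rose by 0.30 on the log2 scale. Gramd1b, which moves cholesterol from the plasma membrane inwards and is itself known as an LXR target, rose by 0.36. Gramd1b rose although the 59 tested genes within 5 Mb of it on chromosome 9 had a median log2 fold change of -0.42. Over the 7 lists together 22 of 70 tested genes rose and 24 fell, next to 29.3% and 28.2% of all tested genes.

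**Figure D4:**
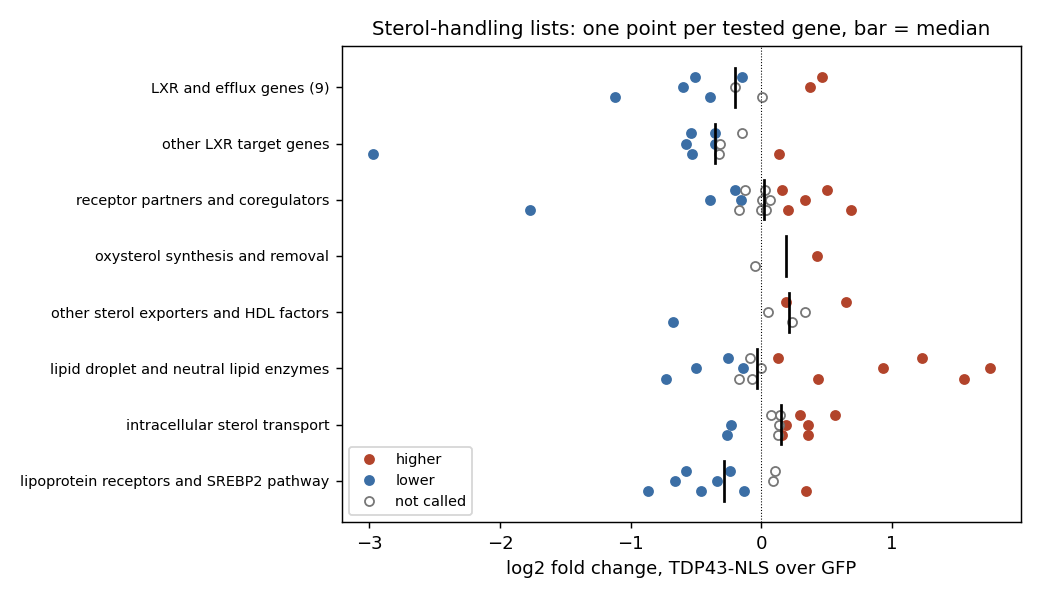
Log2 fold change, TDP43-NLS over GFP, of every tested gene of the 9 described genes and of the 7 fixed lists of sterol handling, 1 point per gene, with the median of each list as a bar. The medians run from -0.36 for other LXR target genes to 0.21 for other exporters, and Mertk, at -2.97, lies farthest from 0.

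None of the 9 genes lies on chromosome 9 or 12. The tested genes within 5 Mb of each had median log2 fold changes between -0.15, around Rxra, and 0.12, around Plin2, and the number of such genes ran from 15 to 210. Set against that local median, Mylip differed by -1.03, Abca1 by -0.63, Abcg1 by -0.45, Rxra by -0.35, Plin2 by 0.35 and Nr1h2 by 0.27 on the log2 scale. In bulk RNA, a lower level per cell and fewer cells with the transcript cannot be told apart.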

How the data were processed

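The deposited count table holds reads per gene for 55359 mouse genes, and the authors' FPKM table covers the 25032 genes with a read, scaled to gene length and library size. FPKM equalled rescaled counts to a relative 7.74e-14 and is no second measurement. Build GRCm39 and the tools Bowtie2 2.2.3, HTSeq 0.6.0 and HISAT2 2.1.0 are named, without roles, per the submitters' processing notes. The strand setting and the handling of multi-mapping reads are not given in the sources used here.

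The deposited counts were tested here with edgeR 4.0.16 in R 4.3.3: filterByExpr (10 reads, 15 in total), TMM, and the two-sided quasi-likelihood test with the group as the only term, Benjamini-Hochberg adjusted over 13199 genes and called under 0.05. Standard errors are the log2 fold change over the square root of F. Alternatives used DESeq2 1.42.0, limma 3.58.1 and other scalings. Same-numbered libraries of the 2 groups did not deviate together.

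The 9 genes and the lists were chosen with earlier results of these data known. Named genes are the 9, Tardbp, Vldlr, Lrp8, Srebf1, Apoe, Ch25h and up to 3 called genes a list with the smallest adjusted p and at least 1 CPM; some genes of the lists, though counted, are not reported here by name. The tests were tried on simulated data. Depth limits precision for genes with few reads.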

Additional observations from a re-analysis of the deposited data

How the results depend on the processing

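The called genes among the 9 kept their direction under all 15 alternatives, which were other scalings, DESeq2, no low-count filter, 3 limma fits of FPKM, the replicate block, each library left out and a test against a log2 fold change of 0.5. They also kept their calls, except that the last left 1 of the 9 (Mylip; Abca1 had an adjusted p of 0.0591 in edgeR's glmTreat). That test left 1965 called genes in all and, in the lists, 2 other LXR targets, 2 receptor partners, 0 oxysterol enzymes (edgeR's quasi-likelihood test called 1 of 2), 1 other exporter, 5 lipid droplet genes, 0 sterol transport genes (8 of 12 in edgeR's quasi-likelihood test) and 2 of the lipoprotein receptor and SREBP2 list. The limma fits each left 1 other exporter. Nceh1, not called, turned to -0.006 with upper-quartile scaling and to -0.026, -0.026 and -0.027 in the limma fits. Leaving out a library gave 7 to 8 calls among the 9 genes, 6700 to 8251 in all and 1 to 4 among other exporters. With the replicate block 7528 genes were called in all, 7 of the 9 among them, and no call among the 9 changed; the numbers do not pair the libraries (correlations of deviations -0.016, -0.0112 and 0.00189). Scarcely read genes (Ch25h, P2ry12) are limited by depth.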
